A study of Mus musculus with 7 samples.

Results

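The genes described here are the machinery of cyclic AMP (cAMP) signalling in mouse lung endothelial cells (MLEC). The rule that chose them used gene symbols and no measured value, but earlier results of these data were known when it was set. It took the alpha subunits of heterotrimeric G proteins (*Gna*), adenylyl cyclases (*Adcy*), phosphodiesterases (*Pde*) and subunits of protein kinase A (PKA, *Prka*). It also took A-kinase anchoring proteins (*Akap*), Rap exchange factors with Rap1 (*Rapgef*, *Rap1a* and *Rap1b*) and CREB factors (*Creb*). The rule gave 80 genes of the 38472 genes in the deposited table. These were 16 G protein alpha subunits, 10 cyclases, 23 phosphodiesterases, 6 PKA subunits, 14 anchoring proteins, 8 Rap genes and 3 CREB factors. *Pde4d* is listed under 2 gene identifiers, so the 80 genes have 79 symbols.

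Adrenomedullin is a peptide made by endothelial cells. Its receptor, formed by *Calcrl* with a RAMP protein, couples to the stimulatory G protein Gs, which activates adenylyl cyclase at the plasma membrane. The cAMP that is made acts through PKA, which is held at particular places in the cell by anchoring proteins, and through Epac, an exchange factor that loads Rap1 with GTP. Phosphodiesterases break the signal down, and CREB carries it to the genome by binding the cAMP response element. In endothelium this pathway is known for tightening junctions between cells.

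Poly(A) RNA of cultured MLEC from C57BL/6 mice was sequenced in 7 libraries that carry the letters a to g. Of these, b, d and g came from AM EC-KO mice, and a, c, e and f from wild type (WT) mice. In AM EC-KO mice, the floxed adrenomedullin gene is deleted by Cre recombinase that the VE-cadherin promoter drives in endothelial cells, so the cells around the endothelium keep the gene. No treatment or age is given for either genotype, and whether WT mice carried the floxed allele or Cre is not given in the sources used here. The lungs of 3 mice were pooled for a cell isolation, and the study used several isolations. The paper describes its sequencing bars as means over 3 or more MLEC preparations. Which library came from which isolation is not given in the sources used here. The p-values therefore reflect the spread among these 7 libraries and nothing wider, and part of that spread may be technical. Expression was deposited as FPKM, which scales the reads of a gene to the length of its transcripts and to the depth of the library. Library values of a genotype follow the alphabetical order of its letters.

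The deleted gene, *Adm*, had 9.31, 17.2 and 0.750 FPKM in AM EC-KO libraries, against 48.2, 70.1, 76.1 and 43.8 FPKM in WT libraries, without overlap. Steps in the low values gave an estimate of 6.4 to 7.7 M mapped reads per library, so that 1 read in a transcript of 2 kb was worth 0.0649 to 0.0781 FPKM. The 8 markers of vascular endothelium were above 0 in every library. Their summed level was 1658 to 2007 FPKM in AM EC-KO and 1927 to 2331 FPKM in WT, and the fitted difference was below 0 for all 8, with 1 of 8 at an unadjusted p under 0.05. The 4 markers of lymphatic endothelium summed to 151 to 188 FPKM in AM EC-KO and 205 to 274 FPKM in WT, the one marker list without overlap. The fitted difference was below 0 for 3 of 4, with 1 of 4, *Lyve1*, at an unadjusted p under 0.05. *Lyve1* had the largest difference, with a mean of 37.8 FPKM in AM EC-KO and 110 FPKM in WT. *Pdpn* ran the other way, with 73.3 FPKM in AM EC-KO and 57.4 FPKM in WT. The sums are therefore not read as a shift of the whole list. The WT library e stood apart. Its 6 fibroblast markers summed to 400 FPKM, against 39.7 to 97.6 FPKM in AM EC-KO and 18.2 to 52.1 FPKM in the other WT libraries. Most of the 400 FPKM came from *Dcn* (227 FPKM) and *Col1a2* (83.1 FPKM). *Col1a2* was listed at 0 in AM EC-KO b and g and in WT c and f, which can be failed estimates. *Col3a1* was highest in WT f, at 31.4 FPKM against 18.4 FPKM in WT e. *Sftpc*, a marker of lung epithelium, had 10.3 FPKM in WT e and was listed at 0 elsewhere. The 7 markers of smooth muscle and pericytes summed to 500 to 674 FPKM in AM EC-KO and 329 to 628 FPKM in WT, with 6 of 7 above 0 (median log2 fold change 0.22) and 1 of 7 at an unadjusted p under 0.05. The 6 macrophage markers summed to 43.6 to 178 FPKM in AM EC-KO and 46.8 to 104 FPKM in WT. *Ptprc*, a marker of all leukocytes, was listed at 0 in all libraries.

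MLEC expressed each family of the pathway. Of the 80 genes, 67 were above 0 in some library, 48 had a mean of at least 1 FPKM, 26 of at least 10 FPKM and 4 of at least 100 FPKM. The 4 were *Gnai2*, *Prkar1a*, *Akap12* and *Rap1b*. One abundant form thus stood out in several families, as the plot of levels by family shows. The 37 genes above 0 in every library with a mean of at least 1 FPKM had a median coefficient of variation over the 7 libraries of 17.0%, against 15.9% for 11011 genes chosen in the same way from the whole table. WT e gave the highest or the lowest value of 26 of these 37 genes (70.3%), and of 60.5% of the 11011.

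**Figure D1:**
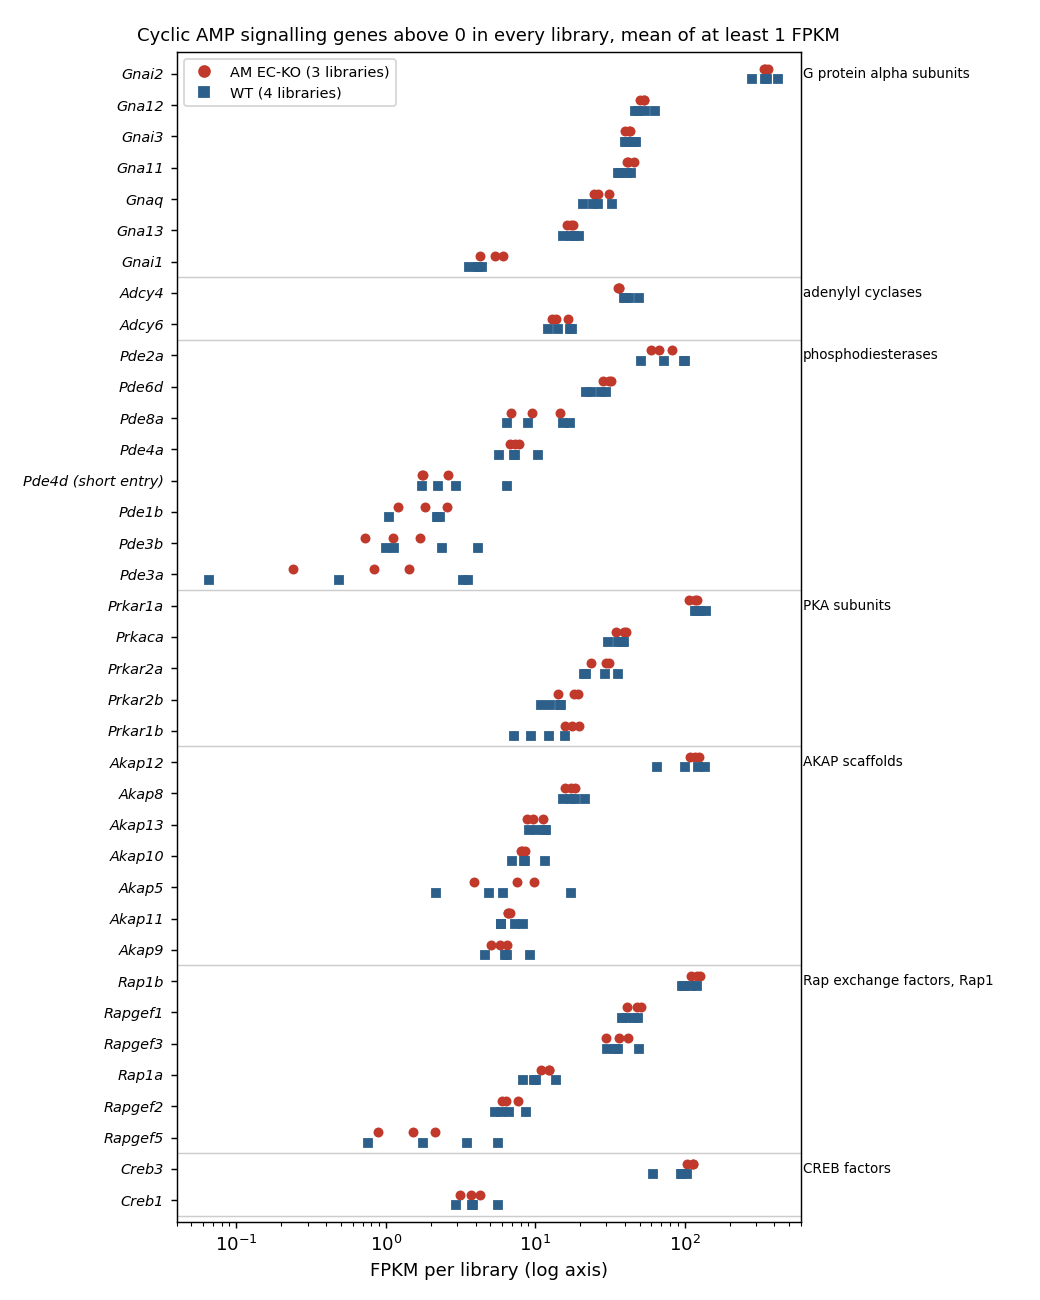
FPKM (x axis, log scale) of the 37 cAMP genes that were above 0 in every library with a mean of at least 1 FPKM, by family and in order of their mean, with 1 point per library (circles, 3 AM EC-KO libraries, squares, 4 WT libraries). Most genes have overlapping genotypes, and Gnai2 has the highest values, 284 to 419 FPKM.

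Of the 80 genes, 56 had a mean of at least 0.1 FPKM and values above 0 in at least 3 libraries and could be tested with limma on log2(FPKM + 1). After Benjamini-Hochberg adjustment over all 15604 genes tested, 1 of the 56 passed an FDR of 0.1, *Gnal*, which was lower in AM EC-KO. It passed on values listed at 0 that are described below. Over all genes, 10 passed (0.0641%), and 5 (0.032%) in the lower direction. At an unadjusted p under 0.05 there were 6 of the 56 (10.7%), against 479 of all genes tested (3.07%). In 2 of the 56, *Adcy8* and *Prkar1b*, the fitted value was higher in AM EC-KO, as it was in 1.65% of all genes tested. In 4 of the 56, *Gnal*, *Gnao1*, *Pde10a* and *Adcy4*, it was lower, as in 1.42% of all genes tested. The share was 2 of 41 (4.88%) among the genes above 0 in every library, against 2.72% of 12520 such genes in the table, and 5 of 54 (9.26%) without WT e, against 3.17% of 15314 genes tested without it. Of the 6, *Gnal* and *Gnao1* passed the filter on low values only through the WT libraries, and *Pde10a* was at 0 in 2 of 3 AM EC-KO libraries, so the count of 6 is not support for a difference in the pathway. The genotypes did not overlap in 4 of the 56 (7.14%), *Adcy8*, *Prkar1b*, *Adcy4* and *Gnal*, and in 5.13% of all genes tested (2.91% with AM EC-KO above WT and 2.22% with AM EC-KO below WT). Without WT e, *Rap1a* was added to these, which made 5 of 54 (9.26%), against 8.03% of all genes tested without it.

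The sizes of the differences were small. The median log2 fold change, AM EC-KO minus WT, was -0.05 over the 56 genes and -0.01 over all genes tested, and the median size without regard to sign was 0.18 against 0.13. The 56 include 15 genes listed at 0 in 1 library or more, whose zeros are counted in these medians. The 0.18 is therefore not read as a size for the pathway. Among the 41 tested genes that were above 0 in every library, the log2 fold changes lay between -0.50 (*Rapgef5*) and 0.67 (*Prkar1b*), with a median of -0.04. With zeros counted, the fold change was above 0 for 21 of the 56 genes and below 0 for 35 (62.5%, against 51.8% of all genes tested). Without WT e it was below 0 for 30 of 54 genes (55.6%), against 48.6% of all genes. The limma adjusted p was at least 0.954 for every tested gene of the pathway other than *Gnal*.

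**Figure D2:**
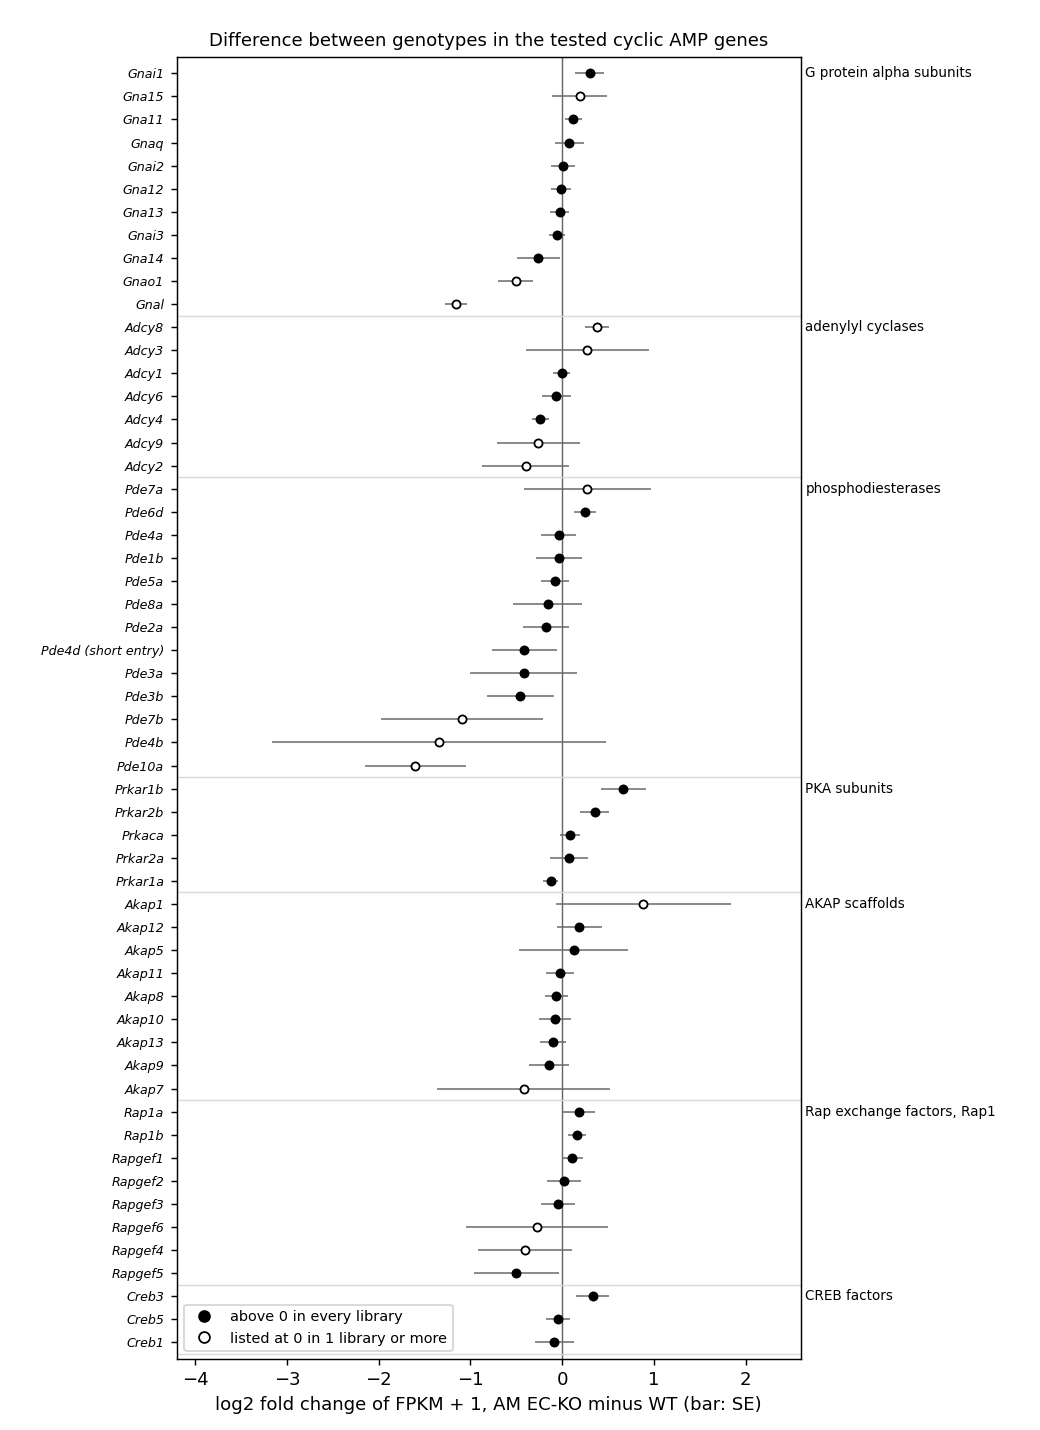
Log2 fold change of FPKM + 1, AM EC-KO minus WT (x axis), with its SE (bars), for the 56 tested cAMP genes by family. Filled points are genes above 0 in every library and open points genes listed at 0 in 1 library or more. The filled points lie between -0.50 and 0.67, and the points farthest to the left, Pde10a, Pde4b, Gnal and Pde7b, are open.

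Some values of exactly 0 in the table cannot be read as silent genes. The authors also give 1 FPKM value for each genotype as a group. Of the 13 cAMP genes listed at 0 in all 7 libraries, 7 had a group value above 0. *Gnas* (ENSMUSG00000027523, GRCm38 with gene limits of GENCODE M21, chr2:174284320-174346744, plus strand), which encodes the alpha subunit of Gs itself, was listed at 0 in all 7 libraries, and the authors' group value was 827 FPKM in AM EC-KO and 722 FPKM in WT. This was the highest group value of the pathway, 56.6% and 54.1% of the summed group values of the 16 alpha subunits in AM EC-KO and in WT. Exons of *Gnas* overlap those of *Gm20721* by 1469 bp and of *Nespas* by 988 bp, both on the opposite strand. The counting is not stated to use strand, so the level of *Gnas* is uncertain. The cyclase *Adcy7* was listed at 0 in all 7 libraries with group values of 6.18 FPKM in AM EC-KO and 5.04 FPKM in WT, and so was the longer entry of *Pde4d*, with 5.29 FPKM in AM EC-KO and 10.1 FPKM in WT. The group values were above the library means by a median factor of 1.13 in AM EC-KO and 1.10 in WT for the 37 genes above, so both kinds of value are kept apart here.

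The zeros went with the number of transcripts that the table lists for a gene. Among genes with a group value of at least 1 FPKM in both genotypes, 0 of 18 cAMP genes with 1 transcript were at 0 in any library, 3 of 16 with 2 or 3 transcripts (18.8%), and 13 of 18 with at least 4 transcripts (72.2%). Over the whole table the shares were 4.62% of 4611, 16.4% of 3734 and 31.1% of 2973 genes. A gene listed at 0 in such a case is therefore given by its libraries. A fitted fold change that counts zeros is drawn as an open point in the plot of differences and is not read as a size. Among genes with zeros, a fold change is stated for *Pde4b*, where the zeros are left out. One is also stated for *Adcy8*, which counts its 0 in WT e.

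**Figure D3:**
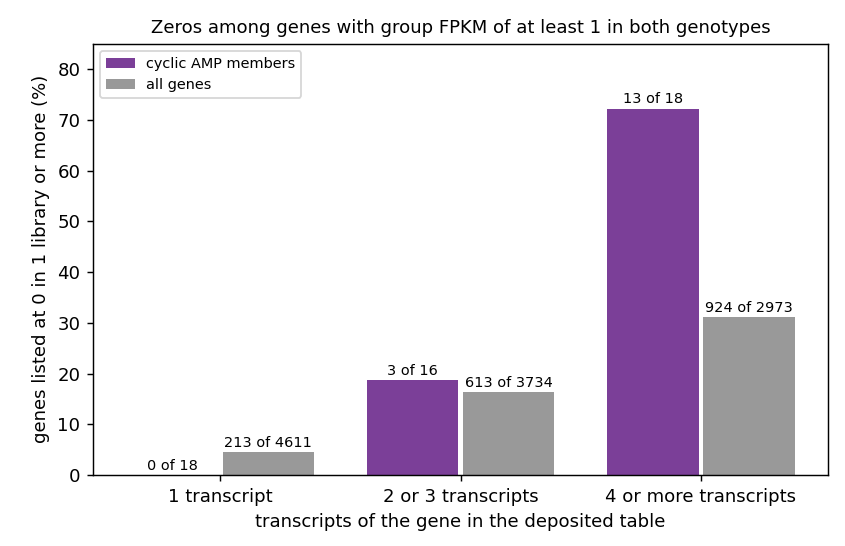
Share of genes listed at 0 in at least 1 library (y axis, %) by the number of transcripts in the table (x axis), for the cAMP genes (left bar of each pair) and for all genes (right bar), among genes with group values of at least 1 FPKM in both genotypes. The counts stand above the bars. The share is 72.2% for cAMP genes with at least 4 transcripts and 31.1% for all such genes.

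Among the G protein alpha subunits with library values, *Gnai2*, of the inhibitory class, was the most abundant. The genotypes overlapped in the genes of that class. *Gnai2*, an inhibitor of adenylyl cyclase, had 345, 365 and 339 FPKM in AM EC-KO libraries, against 345, 419, 284 and 357 FPKM in WT libraries (log2 fold change 0.01, SE 0.13). *Gnai3*, of the same class, had 42.9, 39.9 and 42.3 FPKM in AM EC-KO, against 41.2, 39.8, 47.3 and 45.7 FPKM in WT (-0.06, SE 0.08). *Gnai2* made up 88.1 ± 0.7% of the summed FPKM of *Gnai1*, *Gnai2* and *Gnai3* in AM EC-KO (SD, n = 3) and 87.8 ± 2.4% in WT (SD, n = 4). *Gna12* had 50.03, 53.8 and 53.8 FPKM in AM EC-KO, against 48.9, 63.6, 54.2 and 46.8 FPKM in WT (-0.01, SE 0.11). Its exons overlap those of *Amz1* on the opposite strand, and the counting is not stated to use strand. The *Gnaq* class was also well expressed, with *Gna11* at 41.2 to 46.0 FPKM in AM EC-KO and 36.1 to 44.0 FPKM in WT.

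*Gnal* and *Gnao1* are the alpha subunits known for neurons. *Gnal* encodes Golf, which like Gs activates adenylyl cyclase. No AM EC-KO library had a value above 0, against 1.15, 1.31, 0.975 and 1.53 FPKM in WT libraries, and its limma adjusted p was 0.043 (exact two-sided permutation p = 0.0571, the smallest that 3 against 4 libraries allow). As all its AM EC-KO values are zeros, *Gnal* passed the filter on low values through WT alone, and both p-values restate those zeros. The authors' group value ran the other way, with 1.58 FPKM in AM EC-KO and 1.36 FPKM in WT. The adjusted p of *Gnal* was 0.233, 0.245 and 0.258 without AM EC-KO library b, d or g, and 0.163 with a term for library letters a to d against e to g. Its exons overlap those of *Mppe1* on the opposite strand by 852 bp. *Gnao1* (ENSMUSG00000031748, GRCm38 chr8:93809966-93969388, plus strand), abundant in brain, had no value above 0 in AM EC-KO and in WT a, and had 0.675, 0.485 and 0.635 FPKM in WT c, e and f (limma, unadjusted p = 0.033, adjusted p = 0.954). Exons of *Gnao1* overlap those of an antisense gene on the opposite strand by 284 bp. Its group values were 0.997 FPKM in AM EC-KO and 0.635 FPKM in WT. For both genes the library values were thus lower in AM EC-KO and the group values were higher.

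The cyclases of MLEC were mainly *Adcy4* and *Adcy6*. *Adcy4* (ENSMUSG00000022220, GRCm38 chr14:55769057-55784095, minus strand), a form that Gs and the beta and gamma subunits of G proteins activate, had 36.2, 35.7 and 36.4 FPKM in AM EC-KO libraries, against 39.6, 40.6, 49.5 and 42.2 FPKM in WT libraries. All AM EC-KO libraries were below all WT libraries, with a mean of 36.1 ± 0.4 FPKM in AM EC-KO (SD, n = 3) and 43.0 ± 4.5 FPKM in WT (SD, n = 4). The log2 fold change was -0.24 (SE 0.09), with an unadjusted limma p of 0.034 and an adjusted p of 0.954. It was -0.17 without WT e, which held the highest value. The authors' group values, 41.0 FPKM in AM EC-KO and 47.4 FPKM in WT, had the same order. The 8 markers of vascular endothelium given above ran in the same direction, with a median log2 fold change of -0.20, and their part in the difference of *Adcy4* was not tested. In cultures sequenced in bulk, fewer cells of a type and less RNA per cell cannot be told apart.

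*Adcy6*, a form that calcium inhibits, had 13.9, 13.0 and 16.5 FPKM in AM EC-KO, against 14.2, 12.2, 17.1 and 17.7 FPKM in WT, with overlap (log2 fold change -0.07, SE 0.16). *Adcy3* had 3.57, 3.90 and 3.32 FPKM in AM EC-KO, against 4.597, 6.395 and 4.06 FPKM in WT c, e and f, and was listed at 0 in WT a. Exons of *Adcy3* overlap those of *Cenpo* on the opposite strand by 1380 bp. *Adcy8* (ENSMUSG00000022376, GRCm38 chr15:64697084-64922296, minus strand), a form that calcium and calmodulin activate, had 0.550, 0.422 and 0.688 FPKM in AM EC-KO libraries, against 0.352, 0.178, 0 and 0.261 FPKM in WT libraries. All 3 AM EC-KO libraries were above all WT libraries, at levels of a few reads per kilobase (limma, log2 fold change 0.38, SE 0.13, unadjusted p = 0.026, adjusted p = 0.954). The fit counts the 0 of WT e. With zeros as missing values, the log2 fold change was 0.30 (SE 0.12). The group values were 0.614 FPKM in AM EC-KO and 0.287 FPKM in WT. The cyclases of the pathway were therefore not called in either direction after adjustment over all genes.

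**Figure D4:**
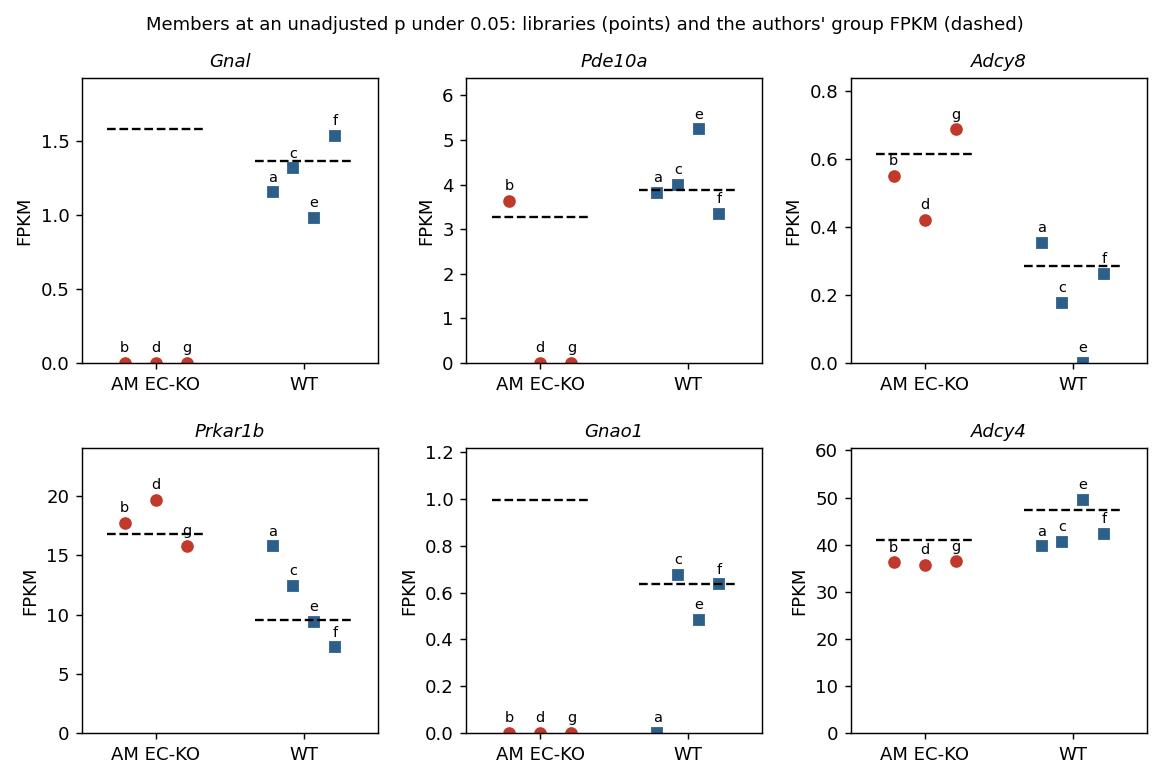
FPKM (y axis, from 0) in each AM EC-KO library (circles) and WT library (squares) for the 6 cAMP genes at an unadjusted limma p under 0.05, with the library letters. Dashed lines are the authors' group values. For Gnal and Gnao1 the dashed line of AM EC-KO, at 1.58 and 0.997 FPKM, lies above all of its libraries, which are listed at 0, while for Prkar1b and Adcy4 the dashed lines have the same order as the libraries.

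The phosphodiesterases were led by *Pde2a*, an enzyme for both cAMP and cGMP that cGMP stimulates. It had 67.1, 82.8 and 60.0 FPKM in AM EC-KO libraries, against 73.3, 100.4, 99.4 and 51.2 FPKM in WT libraries (log2 fold change -0.17, SE 0.25). The WT values lay on both sides of the AM EC-KO values. The identifier of *Pde2a* in the table is named *Gm45837* in GENCODE M21, where it shares 3955 bp of exons with *Pde2a* on the same strand, so its level is uncertain. *Pde6d*, a carrier of prenylated proteins rather than an enzyme, had 31.4, 28.4 and 32.5 FPKM in AM EC-KO, against 27.7, 23.8, 22.0 and 29.9 FPKM in WT (0.25, SE 0.12), with overlap.

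The cAMP-specific *Pde4* enzymes had lower group values in AM EC-KO, by little for *Pde4a*. The library values of *Pde4b*, *Pde4c* and the longer entry of *Pde4d* hold zeros. *Pde4a* and the short entry of *Pde4d* were above 0 in every library, and their genotypes overlapped. *Pde4b* had 18.2 and 24.7 FPKM in AM EC-KO b and g, against 37.6, 80.1 and 50.3 FPKM in WT c, e and f, and was listed at 0 in AM EC-KO d and in WT a. Its group value was 23.6 FPKM in AM EC-KO and 53.0 FPKM in WT. With zeros kept as 0 the unadjusted limma p was 0.484. With zeros as missing values, so with 2 AM EC-KO and 3 WT libraries, the log2 fold change was -1.29 (SE 0.32, unadjusted p = 0.0075, adjusted p = 0.971). For *Pde4d*, the entry with 1 transcript, which GENCODE M21 does not hold, had 1.75, 1.77 and 2.62 FPKM in AM EC-KO, against 1.74, 2.23, 6.49 and 2.97 FPKM in WT, with overlap. *Pde4a* had 6.81, 7.39 and 7.86 FPKM in AM EC-KO, against 7.38, 7.27, 10.5 and 5.76 FPKM in WT (log2 fold change -0.04, SE 0.19). Its group values were 7.85 FPKM in AM EC-KO and 8.23 FPKM in WT.

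Among the 13 phosphodiesterases tested, the log2 fold change was below 0 for 11 and above 0 for 2, with a median of -0.17, against 51.8% below 0 over all genes tested. The direction rested on WT e. Without it, 7 of the 13 were below 0 and the median was -0.06, and in libraries a to d alone 6 of 11 were below 0. WT e held the highest value of *Pde3b*, with 4.14 FPKM against 0.727 to 1.70 FPKM in AM EC-KO and 1.00 to 2.39 FPKM in the other WT libraries. It also held the highest values of *Pde4a*, *Pde4b*, *Pde8a*, *Pde10a* and the short entry of *Pde4d*, and it is the library with 400 FPKM of fibroblast markers. The part of those markers in the direction of the phosphodiesterases was not tested.

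*Pde10a* (ENSMUSG00000023868, GRCm38 chr17:8525372-8986648, plus strand), an enzyme for both cyclic nucleotides known from the striatum, had 3.63 FPKM in AM EC-KO b and was listed at 0 in d and g, against 3.81, 3.99, 5.24 and 3.34 FPKM in WT. The one AM EC-KO library above 0 lay within the WT values, and the group values were 3.28 FPKM in AM EC-KO and 3.87 FPKM in WT. The limma p was 0.023 before and 0.954 after adjustment. Without AM EC-KO b, which leaves only zeros in that genotype, *Pde10a* had an adjusted p of 0.050 and was the only cAMP gene past the FDR of 0.1. Of the 10 phosphodiesterases that were not tested, 7 were listed at 0 in all libraries. *Pde8b* had 3.16 FPKM in WT e and was listed at 0 in the other 6 libraries.

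PKA is built of catalytic subunits that regulatory subunits of type I or type II hold inactive until cAMP binds. *Prkaca*, the main catalytic subunit, had 34.99, 39.6 and 40.5 FPKM in AM EC-KO libraries, against 36.1, 39.5, 30.6 and 38.2 FPKM in WT libraries (log2 fold change 0.09, SE 0.11). *Prkacb*, the other catalytic subunit, was listed at 0 in all libraries but WT c, which had 12.9 FPKM, while its group values were 15.3 FPKM in AM EC-KO and 14.8 FPKM in WT. Neither catalytic subunit thus gave a difference that could be read beyond the spread of the libraries.

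*Prkar1b* (ENSMUSG00000025855, GRCm38 chr5:139017306-139150001, minus strand), the type I regulatory subunit known best from brain, was the regulatory subunit with the largest difference. It had 17.7, 19.7 and 15.8 FPKM in AM EC-KO libraries, against 15.8, 12.4, 9.37 and 7.24 FPKM in WT libraries. The mean was 17.8 ± 1.9 FPKM in AM EC-KO (SD, n = 3) and 11.2 ± 3.7 FPKM in WT (SD, n = 4). The genotypes did not overlap, but by a narrow margin, since AM EC-KO g, at 15.82 FPKM, was just above WT a, at 15.77 FPKM. The log2 fold change was 0.67 (SE 0.25), with a limma p of 0.031 before and 0.954 after adjustment and an exact two-sided permutation p of 0.0571. It was 0.39 in libraries a to d alone and 0.49 to 0.84 when each library was left out in turn. The group values were 16.8 FPKM in AM EC-KO and 9.60 FPKM in WT. Exons of *Prkar1b* overlap the transcript *Gm15672* on the same strand by 341 bp, and reads there could be given to either gene.

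The other regulatory subunits overlapped between genotypes. *Prkar1a*, the type I subunit found in all tissues, had 121, 118 and 107 FPKM in AM EC-KO, against 127, 139, 118 and 121 FPKM in WT (log2 fold change -0.13, SE 0.08). *Prkar2a*, of type II, had 31.1, 29.8 and 23.5 FPKM in AM EC-KO, against 29.5, 35.6, 21.9 and 21.1 FPKM in WT (0.08, SE 0.20). *Prkar2b*, also of type II and known from fat and brain, had 14.1, 19.3 and 18.1 FPKM in AM EC-KO, against 12.5, 14.9, 10.9 and 14.6 FPKM in WT (0.35, SE 0.16, limma adjusted p = 0.954). Only AM EC-KO b lay within the WT values of *Prkar2b*.

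As shares of the summed FPKM of the 4 regulatory subunits in a library, *Prkar1b* made up 9.93 ± 0.53% in AM EC-KO (SD, n = 3) and 6.24 ± 1.70% in WT (SD, n = 4), and *Prkar1a* 64.7 ± 1.3% in AM EC-KO and 71.3 ± 2.9% in WT. These shares were looked at after the values of *Prkar1b* had been seen and are given without a test. Both shares were without overlap between genotypes, with *Prkar1b* at 9.61 to 10.5% in AM EC-KO and 4.43 to 8.52% in WT. The shares of a library add to a whole, so the 2 separations are not independent. In FPKM, *Prkar1a* overlapped between genotypes. By FPKM, the genotypes did not overlap in 5.13% of all genes tested. When each library was left out in turn, the difference in the share of *Prkar1b* was 3.09 to 4.45 percentage points. *Prkar2a* made up 15.7 ± 1.3% in AM EC-KO and 15.0 ± 2.2% in WT, and *Prkar2b* 9.66 ± 1.76% in AM EC-KO and 7.46 ± 1.01% in WT, with overlap for both.

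**Figure D5:**
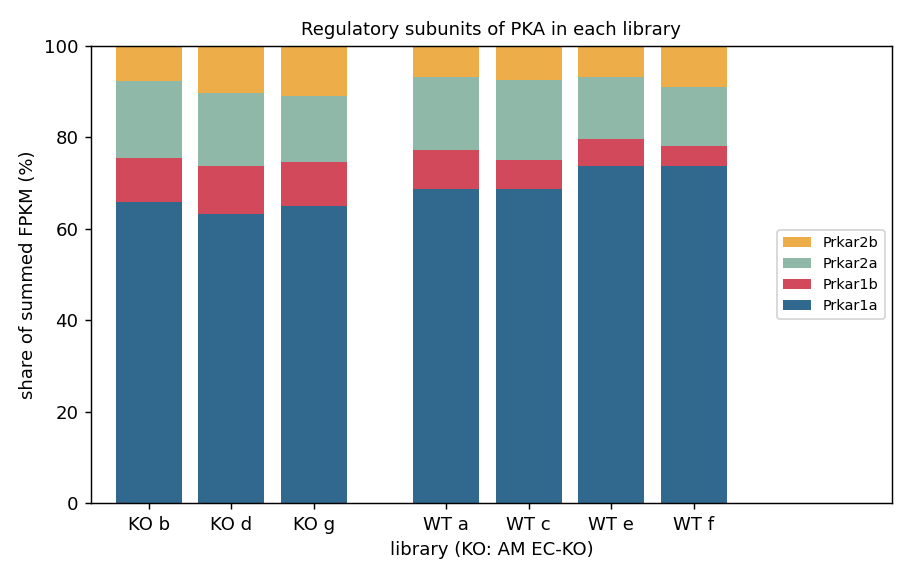
Share of each PKA regulatory subunit in the summed FPKM of the 4 subunits (y axis, %) in the 3 AM EC-KO libraries (left) and the 4 WT libraries (right). Prkar1a makes up 63.2 to 65.8% in AM EC-KO and 68.8 to 73.8% in WT, and Prkar1b 9.61 to 10.5% in AM EC-KO and 4.43 to 8.52% in WT.

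None of the 9 anchoring proteins tested reached an unadjusted limma p under 0.05. *Akap12*, or gravin, which holds PKA and protein kinase C below the plasma membrane, had 125, 118 and 110 FPKM in AM EC-KO libraries, against 138, 123, 65.8 and 101 FPKM in WT libraries (log2 fold change 0.19, SE 0.24). The lowest value was that of WT e. *Akap8*, found in the nucleus, had 17.5, 15.8 and 18.5 FPKM in AM EC-KO, against 18.5, 15.4, 21.4 and 17.5 FPKM in WT (-0.07, SE 0.13). *Akap1*, which sits on mitochondria, had 12.1, 10.7 and 12.9 FPKM in AM EC-KO, against 10.1, 13.7 and 13.5 FPKM in WT c, e and f, and was listed at 0 in WT a. Its group values were 13.5 FPKM in both genotypes. *Akap2* had 52.0 FPKM in WT e and was listed at 0 in the other 6 libraries, with group values of 79.2 FPKM in AM EC-KO and 64.3 FPKM in WT. Its exons share 6891 bp with *Pakap* on the same strand, so that its level is uncertain.

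The Rap branch was well expressed, led by *Rap1b*, and gave no call. *Rap1b*, the GTPase that strengthens endothelial junctions when loaded with GTP, had 127, 120 and 111 FPKM in AM EC-KO libraries, against 121, 111, 96.3 and 98.6 FPKM in WT libraries (log2 fold change 0.16, SE 0.10, limma adjusted p = 0.954). It made up 90.9 ± 1.1% of the summed FPKM of *Rap1a* and *Rap1b* in AM EC-KO and 90.9 ± 2.5% in WT. *Rapgef3*, which encodes the cAMP sensor Epac1, had 36.2, 30.0 and 41.6 FPKM in AM EC-KO, against 30.4, 35.7, 34.2 and 49.7 FPKM in WT (-0.05, SE 0.18). The WT values were on both sides of those of AM EC-KO. *Rapgef4*, which encodes Epac2, was listed at 0 in AM EC-KO b and d and in WT e, and at 1.68 FPKM in AM EC-KO g, against 0.673, 2.51 and 0.970 FPKM in WT a, c and f. Its group values were 1.98 FPKM in AM EC-KO and 1.33 FPKM in WT. *Rapgef1*, an exchange factor that does not bind cAMP, had 41.3, 47.8 and 51.0 FPKM in AM EC-KO, against 40.4, 48.6, 38.0 and 45.8 FPKM in WT (0.11, SE 0.12). Of the genes of both Epac proteins, *Rapgef3* was thus the one at a high RNA level in both genotypes.

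The CREB factors did not differ beyond their spread. *Creb3*, an endoplasmic reticulum protein that is cut to release its DNA-binding part and is not the target of PKA that *Creb1* is, was the most abundant by far. It had 114, 104 and 114 FPKM in AM EC-KO libraries, against 96.5, 95.0, 61.6 and 104 FPKM in WT libraries. The genotypes overlapped only in AM EC-KO d and WT f (log2 fold change 0.33, SE 0.18, limma adjusted p = 0.954, and 0.16 without WT e). Exons of *Creb3* overlap those of *Tln1* and *Gba2* on the opposite strand. *Creb1* had 3.72, 4.25 and 3.13 FPKM in AM EC-KO, against 3.81, 3.80, 5.65 and 2.97 FPKM in WT (-0.09, SE 0.21), and *Creb5* had 0.681, 0.404 and 0.509 FPKM in AM EC-KO, against 0.5997, 0.519, 0.410 and 0.8003 FPKM in WT.

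Since CREB binds the cAMP response element, the promoters of the pathway were searched for its letters TGACGTCA, which read the same on both strands. RefSeq promoter windows (GRCm38.p6), from 250 bases before to 50 bases after each annotated start, were at hand for 64 of the genes. The element was found in 3 of the 64 (4.69%), *Rap1b*, *Creb5* and *Prkar1a*, and in 549 of 27025 genes of the whole set (2.03%). The shorter letters TGACG, searched on both strands and contained in the full element, were found in 20 of the 64 (31.2%) and in 23.0% of the whole set. The stretches of *Rap1b* (chr10:117845998-117846027, minus strand, element starting 42 bases before the start) and *Creb5* (chr6:53287247-53287276, plus strand, 45 bases before the start) are shown to place the element, which stands in capitals.
Rap1b: ggctgaacgccTGACGTCAaggcgacaccg
Creb5: ggaatcccacgTGACGTCAccgggggggtg
In *Prkar1a* the element lies after the annotated start. All these starts are those of RefSeq. By the gene limits of GENCODE M21 (chr10:117813871-117846035), the stretch of *Rap1b* lies inside the gene. None of the 3 genes was called between the genotypes, and no binding was measured.

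The genes around the machinery were read from 8 lists of receptors, other G protein subunits, receptor kinases and arrestins, PKA inhibitors and other effectors, coactivators, CREB targets and Rap1 partners. Of 71 genes, 70 were in the table and 57 were tested, and limma called 0 at an FDR of 0.1. At an unadjusted p under 0.05 there were 2, 1 in each direction, which is near the 3.07% of all genes tested. The median log2 fold change over the 57 was 0.03, with 31 above 0 and 26 below 0. *Grk4*, a receptor kinase, had 3.18, 3.33 and 4.44 FPKM in AM EC-KO libraries, against 2.93, 0.588, 2.18 and 1.27 FPKM in WT libraries (limma, log2 fold change 0.83, SE 0.33, unadjusted p = 0.038, adjusted p = 0.954). *Gpr182*, an endothelial receptor related to those of chemokines, had 1.35, 1.90 and 2.50 FPKM in AM EC-KO, against 2.44, 2.78, 3.83 and 3.43 FPKM in WT (-0.50, SE 0.20, limma unadjusted p = 0.044, adjusted p = 0.954). *Grk4* did not overlap between genotypes, and *Gpr182* overlapped in 1 library of each. Both were named for their small p, and AM EC-KO lay above WT without overlap in 2.91% of all genes tested.

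On the receptor side, 4 of 5 tested genes had a fold change below 0, with a median of -0.27. *Ramp2*, a partner of *Calcrl* in an adrenomedullin receptor, had 101, 91.5 and 123 FPKM in AM EC-KO libraries, against 123, 104, 158 and 126 FPKM in WT libraries (log2 fold change -0.27, SE 0.16). *Ramp3*, the other such partner, had 6.57, 11.1 and 7.46 FPKM in AM EC-KO, against 9.19, 15.5, 16.2 and 7.15 FPKM in WT (-0.43, SE 0.32), with overlap. *Calcrl* itself had 20.3, 15.1 and 29.7 FPKM in AM EC-KO, against 10.5, 12.9, 24.7 and 48.8 FPKM in WT (0.04, SE 0.52). Of the 6 tested coactivators and CREB relatives, 5 had a fold change below 0, with a median of -0.15, and *Crem* was listed at 0 in all libraries with group values of 20.6 FPKM in AM EC-KO and 26.8 FPKM in WT. The CREB target genes gave 0 calls. *Dusp1*, a phosphatase that acts on MAP kinases, had 126, 127 and 85.8 FPKM in AM EC-KO, against 125, 130, 80.0 and 109 FPKM in WT (0.03, SE 0.21), and *Junb*, a subunit of AP-1, had 54.5, 58.7 and 24.5 FPKM in AM EC-KO, against 49.7, 50.3, 53.7 and 28.6 FPKM in WT. *Sik1*, a kinase whose gene CREB activates, had 1.57, 1.51 and 2.01 FPKM in AM EC-KO, against 1.49, 2.22, 7.11 and 4.27 FPKM in WT (-0.68, SE 0.41, limma adjusted p = 0.954), and its highest value was again that of WT e.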

How the data were processed

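MLEC RNA was sequenced in 3 AM EC-KO and 4 WT libraries, grouped by the genotype in their labels. The authors trimmed reads with cutadapt, mapped them to GRCm38 with TopHat2 2.0.6 and estimated FPKM per gene, and the submitters' processing notes also name Cufflinks and Cuffdiff. The table that the authors deposited holds FPKM of the single libraries and of both genotypes as groups. Their fold changes, p-values, q-values and splicing columns were not used. Of the 38472 genes, 172 have no library values. An FPKM of exactly 0 can be a failed estimate.

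Library FPKM were tested as log2(FPKM + 1) with limma 3.58.1 in R 4.3.3 (moderated variances, trended on the mean, with statmod 1.5.0 for the robust alternative) where a gene averaged 0.1 FPKM or more and at least 3 libraries were above 0, with Benjamini-Hochberg adjustment over all 15604 genes. Fold changes are on that scale and understate those of low genes. The code was tested on simulated data. Exact permutation tests of single genes went through all 35 ways to pick 3 of 7 libraries. Python 3.11.15 (pandas 2.3.3, scipy 1.17.1, matplotlib 3.10.9) was used for the rest.

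Mapped reads were estimated from steps in the FPKM of genes with 1 transcript of over 1500 bp. The totals turned 56.8 to 60.9% of low values into whole reads (tolerance 0.1 read, 20% by chance), too few for a count test. Exon overlaps and names come from GENCODE M21, which holds 79 of the 80 identifiers.

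Named with library values were the cAMP genes past FDR 0.1 or an unadjusted p of 0.05, the 3 most abundant of each family, those at 0 in a library with a median of at least 5 FPKM elsewhere, *Gnas* and *Gnal*, and in the further lists up to 3 genes by p and 2 by level. The other genes named with values were picked after their values had been seen. The members and lists were chosen with earlier results of these data known. The alternatives were pseudocounts of 0.1 and 0.01, other filters, zeros as missing values, quantile normalization, TPM computed from the FPKM, limma without a trend and with robust moderation, a term for library letters, libraries a to d alone, and each library left out in turn. The leave-one-out values of the *Prkar1b* share were chosen after seeing the data.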

Additional observations from a re-analysis of the deposited data

Results flagged for a closer look

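In 2 of 28 sets of 4 WT values of the genes with library values given here, 1 library stood far from the other 3. Both genes were named because they hold zeros beside a higher value. The count of 2 can therefore not be set against the 1 in 20 that chance gives. In both the other 3 values are zeros, which sets the distance, and such zeros can be failed estimates. *Akap2* had 52.0 FPKM in WT library e and was listed at 0 in every other library of both genotypes, and *Prkacb* had 12.9 FPKM in WT library c and was likewise listed at 0 in every other library. The authors' group values were 79.2 FPKM in AM EC-KO and 64.3 FPKM in WT for *Akap2*, and 15.3 FPKM in AM EC-KO and 14.8 FPKM in WT for *Prkacb*.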

How the results depend on the processing

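The 1 cAMP gene past the FDR of 0.1 (*Gnal*) became 0 with a filter at a mean of 1 FPKM, with genes above 0 in every library, with zeros as missing values, with a term for library letters and in libraries a to d alone. Without each library in turn there were 0 to 1, with 0 without AM EC-KO d or g, and the 1 without AM EC-KO b was *Pde10a*. In the first 3 settings and in libraries a to d, *Gnal* was not among the genes tested. The adjusted p of *Gnal* was 0.012 to 0.258 over 15 alternatives. Over all genes, the 10 past the FDR became 18 and 17 with pseudocounts of 0.1 and 0.01, 0 with genes above 0 in every library, with zeros as missing values and in libraries a to d, and 8 to 39 without each library in turn. The further lists had 0 genes past the FDR in all 19 alternatives. The cAMP genes at an unadjusted p under 0.05 numbered 0 to 8, with 0 in libraries a to d (3.93% of all genes), 2 without AM EC-KO d (1.86%) or g (2.50%) and 8 without WT a (3.98%). Their median log2 fold change was -0.07 to 0.00, and above 0 only in libraries a to d. *Prkar1b* (0.39 to 0.84), *Adcy4* (-0.28 to -0.15) and *Adcy8* (0.23 to 2.25) kept their direction in every alternative that tested them. The 2.25 of *Adcy8* came with a pseudocount of 0.01 and counts its 0 in WT e. No paired analysis was possible because the libraries carry single letters and share no replicate number between genotypes. At 6.4 to 7.7 M reads per library, genes under about 1 FPKM such as *Adcy8* rest on few reads.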
